A study of Rattus norvegicus with 16 samples.

Results

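Gene expression in the renal cortex of 4 rats that received fructose in the drinking water together with a high-salt diet (FHS, rats 13 to 16) was compared with that of 4 rats that received water and a normal-salt diet (CNS, rats 1 to 4). These 8 arrays are part of a set of 16. The remaining 8 carry each exposure alone, namely fructose on the normal-salt diet (FNS, rats 5 to 8) and water on the high-salt diet (CHS, rats 9 to 12), and they were used to ask which genes moved only where both exposures were combined. All animals were male rats of the outbred Sprague-Dawley stock, labelled as 7 weeks old. Fructose was given at 20% in the drinking water for 7 days, and the high-salt chow held 4% NaCl. By the methods of the study the base diets came from different makers and had unlike amounts of protein, carbohydrate and energy beside their unlike NaCl, so a difference between FHS and CNS is one of fructose and base diet together. Rats were housed in pairs and the labels name no cages, so each rat was treated as independent. The tissue was a slice of superficial cortex, which holds many cell types, and in such bulk samples fewer cells of a type and less RNA per cell cannot be told apart.

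The cortex is made up largely of proximal tubules. Their cells take up filtered or circulating fructose through the carriers encoded by Slc2a5 and Slc5a10, phosphorylate it with ketohexokinase (Khk), and can pass its carbon to glucose, since the proximal tubule, like the liver, expresses the enzymes of gluconeogenesis. More distal segments set the final excretion of sodium. Almost every renal cell also runs a circadian clock, in which BMAL1 with CLOCK or NPAS2 drives transcription of the Period and Cryptochrome genes, whose products then repress BMAL1.

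Each value is a log2 expression level of a TranscriptClusterID, the unit in which this array reports a transcript. Of 36685 TranscriptClusterIDs, 18511 carried 1 gene symbol, and keeping the one of highest mean per symbol left 18166 genes. Over the 16 arrays the mean levels of 12 measured proximal tubule markers (S1 and S2) were at least 10.30, with a median of 12.05, and those of 10 markers of S3 lay between 5.53 and 11.65. Slc34a1, the main sodium-phosphate cotransporter of the proximal tubule, lay between 12.83 and 12.90 in CNS and between 12.95 and 13.08 in FHS (adjusted p = 0.223). The FHS arrays stood apart from the CNS arrays as a whole. Their medians over all TranscriptClusterIDs ran from 5.33 to 5.44 against 5.26 to 5.29, a mean difference of 0.095 (exact permutation test, two-sided, p = 0.0286, the smallest that 4 against 4 arrays can give), and the standard deviation over TranscriptClusterIDs was 2.18 to 2.26 against 2.26 to 2.29. The FNS and CHS arrays had medians from 5.25 to 5.34. Split by mean level into 5 classes of like size, genes had a median FHS minus CNS difference of 0.08 in the lowest class, 0.10 in the next, 0.00 in the middle one, and −0.05 and −0.07 in the uppermost ones. Of the genes called, 85 higher and 10 lower fell in the lowest class, and 142 higher and 411 lower in the highest. The part that this compression of the FHS arrays plays in the calls below was not tested. Rat 14 had the highest median and the lowest array weight of the 16 (0.406), followed by rat 2 (0.549).

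A gene was called where its p-value in limma, a moderated linear model fitted over all 16 arrays, was under 0.05 after Benjamini-Hochberg adjustment over all TranscriptClusterIDs. Between FHS and CNS, 1646 of 18166 genes were called (9.06%), 625 higher (3.44%) and 1021 lower (5.62%) in FHS. The called genes differed by a median of 0.50 on the log2 scale and by at most 3.17. Without adjustment, 2161 genes (11.9%) were higher and 2418 (13.3%) lower at p under 0.05. The values of the 4 FHS rats lay wholly above those of the 4 CNS rats for 1309 genes (7.21%) and wholly below for 1673 (9.21%). The balance of directions depended on how the arrays were brought to a common scale. With each array centred on its median, 289 genes were higher and 1716 lower, and with quantile normalization 660 were higher and 893 lower. The count also depended on which rat was left out. It fell to 855 without rat 1, to 878 without rat 3, to 921 without rat 13 and to 1070 without rat 4.

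Each exposure alone gave fewer calls against the same CNS arrays. Fructose on the normal-salt diet gave 0 (0% of genes; 599, or 3.3%, at an unadjusted p under 0.05; lowest adjusted p 0.732 in limma). The high-salt diet with water gave 603 (3.32%), of which 193 were higher (1.06%) and 410 lower (2.26%). This count too depended on the rat left out, and fell to 233 without rat 1, 286 without rat 3, 275 without rat 12 and 293 without rat 10. Each such fit has 1 rat fewer, and the part of that in the counts was not tested. Rats given both exposures differed from those on fructose alone in 959 genes (5.28%), a count that fell to 382 without rat 8, 386 without rat 5, 489 without rat 13, 539 without rat 6, 559 without rat 15 and 633 without rat 14. Against those on the high-salt diet alone they differed in 0 genes (0%), with 1646 genes (9.06%) at an unadjusted p under 0.05 and a lowest adjusted p of 0.0900. That 0 depended on the setting. Without dim rows, 14 genes were called between FHS and CHS (5 higher and 9 lower, among them Hacl1, Fbxo21, Slc13a2, Mki67, Top2a, Aspm, Esco2 and Rhoq, described below; adjusted p from 0.0320 to 0.0480). With all rows fitted and the adjustment made over the 18166 genes only, 0 were called (lowest adjusted p 0.0857 in limma). At an adjusted p under 0.10 there were 15, with an intensity trend 1 (Top2a, 0.0498) and without rat 15 1 (Immp1l, 0.0181). FHS minus CNS, FNS minus CNS and CHS minus CNS share the CNS arrays, so their values are given side by side and their likeness is not read as a result.

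**Figure D1:**
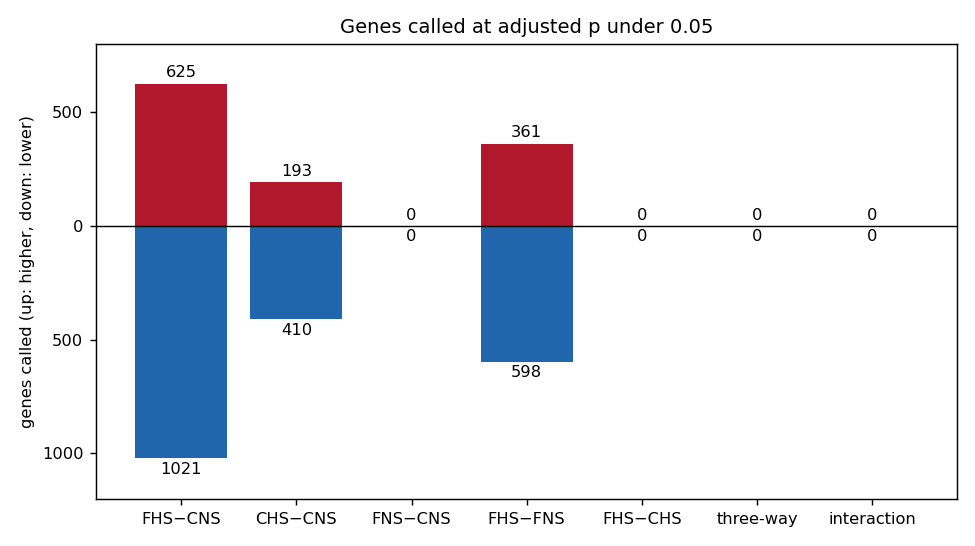
Number of genes called (adjusted p under 0.05, limma, 18166 genes tested) in each comparison, with genes higher in the first-named group drawn upward and genes lower drawn downward. FHS minus CNS has 625 higher and 1021 lower genes, CHS minus CNS 193 and 410, and FNS minus CNS, FHS minus CHS, the three-way comparison (FHS apart from all other groups) and the interaction have 0.

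Of the 1646 genes called between FHS and CNS, 1199 (72.8%; 501 higher and 698 lower) were called with neither exposure alone, and 441 of them (190 higher and 251 lower) had an unadjusted p of 0.05 or more in both single exposures. Such a gene misses a threshold alone and passes it in combination, which does not show that it moved only with both. A stricter reading asks that FHS differ in 1 direction from CNS, from FNS and from CHS, with the largest of the 3 p-values adjusted over all TranscriptClusterIDs. By that reading 0 genes were called (0%; 648, or 3.57%, at an unadjusted p under 0.05 in limma, 289 higher and 359 lower; lowest adjusted p 0.244). The interaction, which asks whether FHS departed from the sum of the single differences, also called 0 genes (0%; 869, or 4.78%, at an unadjusted p under 0.05; lowest adjusted p 0.599). Over the fits that each left out 1 rat, a gene passed the three-way threshold only without rat 15. It was Immp1l, a subunit of the inner membrane peptidase of mitochondria, lower in FHS (adjusted p = 0.0339 without rat 15, 0.877 with all rats). Its levels of 7.55, 7.48, 8.82 and 8.01 in the 4 FHS rats put rat 15 among the CNS values of 8.66 to 8.82.

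The genes nearest to such a response are described here with their values. Mki67, whose product Ki-67 marks cycling cells, had the smallest p of the three-way comparison (5.7e-05). Its level was 9.48, 9.76, 9.80 and 9.53 in CNS and 8.36, 8.25, 8.21 and 8.70 in FHS, with means of 9.40 in FNS and 9.28 in CHS. The 4 FHS rats thus lay below every CNS rat, and the difference was −1.26 ± 0.16 (SE; adjusted p = 0.000536), against −0.24 in FNS and −0.37 in CHS, neither called. Rhoq, a small GTPase, was 6.84, 6.59, 6.91 and 6.98 in FHS and 7.26 to 7.54 in CNS, and it differed by 0.01 in CHS (adjusted p = 0.974). Its interaction had an unadjusted p of 0.0003. Pzp, an alpha-macroglobulin protease inhibitor, was 10.51 to 11.25 in FHS and 11.42 to 11.68 in CNS, with means of 11.57 in both FNS and CHS. Steap3, a ferrireductase of iron uptake, lay between 6.31 and 6.37 in FHS and between 6.75 and 6.99 in CNS.

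Among the 10 higher genes with the smallest p of the three-way comparison, Hacl1 encodes the peroxisomal lyase that shortens 2-hydroxy fatty acids. It stood at 9.45, 9.93, 9.80 and 9.58 in FHS and at 8.83, 9.05, 8.98 and 8.82 in CNS. The difference was 0.77 ± 0.13 (adjusted p = 0.00297), against 0.12 in FNS and 0.02 in CHS, so that the FHS rats lay above all 12 others, whose highest value was 9.29. Fbxo21, the substrate-binding part of a ubiquitin ligase, differed by 0.63 ± 0.09 (adjusted p = 0.000845) against 0.19 in CHS. Hexd, which encodes a hexosaminidase, differed by 0.86 ± 0.12 against 0.31 in CHS. Lgals3bp, a secreted glycoprotein that binds galectin-3, differed by 0.76 ± 0.11 and Rsrp1, an arginine- and serine-rich protein, by 0.51 ± 0.10. Akap8l, a nuclear anchoring protein, differed by 0.54 ± 0.11. The remaining 4 of the 10 were Krtap14l, Dcm5, Or5ae1 and Mir338, whose levels of 2.88, 3.81, 7.46 and 4.62 over all arrays belong to rows named for a hair keratin-associated protein, a gene of unstated function, an olfactory receptor and a microRNA.

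**Figure D2:**
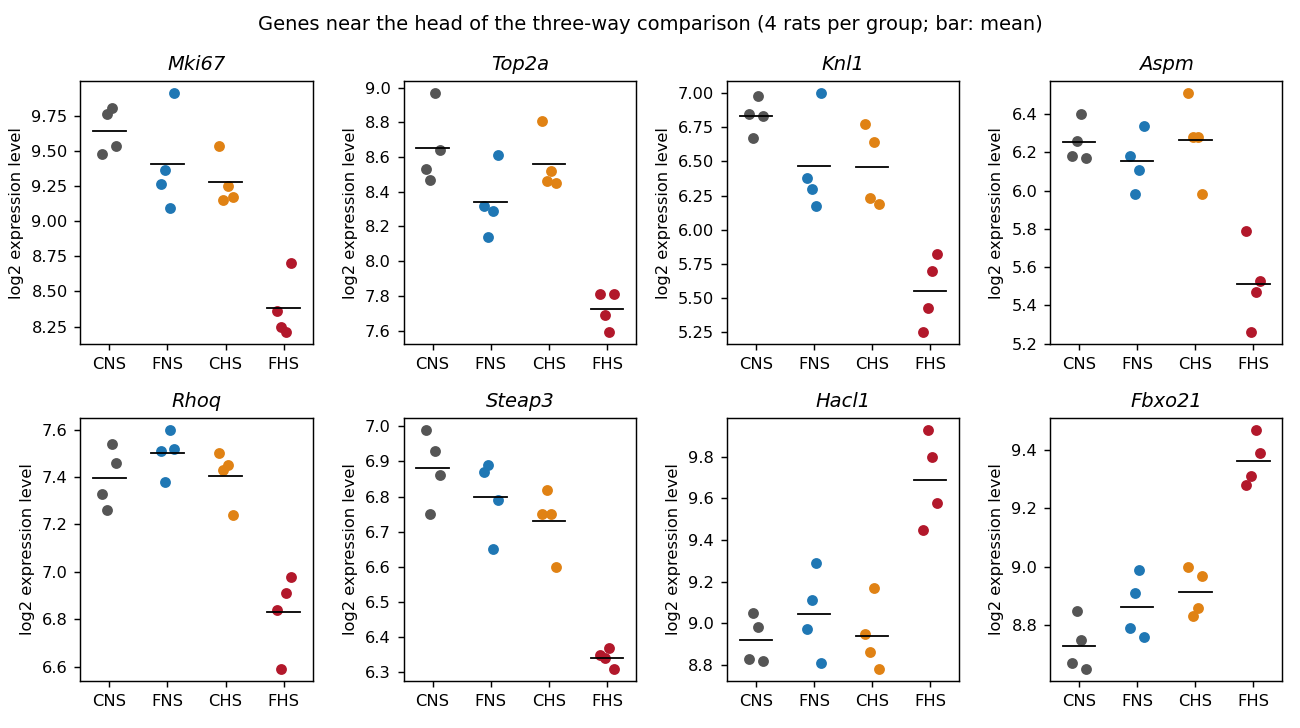
Log2 expression level of 8 genes near the head of the three-way comparison in every rat of the 4 groups (CNS, FNS, CHS, FHS; points are rats, horizontal bars are group means). FHS points of Mki67, Top2a, Knl1, Aspm, Rhoq and Steap3 lie below, and those of Hacl1 and Fbxo21 above, all 4 CNS points.

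The cell cycle list held 36 measured genes of 40, and 17 of them fell in FHS against CNS while 0 rose, against 5.62% of all genes called lower. The list's median difference was −0.55, beside 0.02 over all genes, and 35 of the 36 differences were below 0. For the single exposures the medians were −0.18 in FNS and 0.06 in CHS, with 0 members called in either. Taken per rat as the median of the list relative to the CNS mean, FHS rats lay between −0.76 and −0.42, CNS rats between −0.12 and 0.15, FNS rats between −0.38 and 0.15 and CHS rats between −0.14 and 0.24, so the FHS rats did not overlap the others. The count of 17 went no lower than 13 when any 1 rat was left out (rat 3 or rat 4) and was 17 with quantile normalization and 19 with median centring.

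The members called were mostly those of mitosis. Top2a, topoisomerase II alpha, was 7.81, 7.69, 7.59 and 7.81 in FHS and 8.53, 8.47, 8.97 and 8.64 in CNS, a difference of −0.93 ± 0.13 (adjusted p = 0.000922) against −0.31 in FNS and −0.09 in CHS. Nuf2, a kinetochore protein, differed by −1.03 ± 0.16 (adjusted p = 0.00165), its partner Ndc80 by −1.12 (adjusted p = 0.0064) and the spindle protein Aspm by −0.74 ± 0.13 (adjusted p = 0.0036). Knl1, the scaffold of the kinetochore, was outside the list and had 5.25 to 5.82 in FHS and 6.67 to 6.98 in CNS. Esco2, a cohesin acetyltransferase, Depdc1 and Ska3, a kinetochore component, were also outside it and differed by −0.99, −1.33 and −0.94. They and Knl1 were named for a small p of the three-way comparison among lower genes. Their fall follows from that rule and adds no support to the list. Members of the replication licensing complex stayed near 0, with −0.02 for Mcm2, −0.16 for Mcm3, −0.07 for Mcm5 and −0.12 for Mcm6, none called. Ccnd1, the cyclin of early G1 and not a member of the list, rose by 0.84 ± 0.12 (adjusted p = 0.000874). With the high-salt diet alone it rose by 0.60 (adjusted p = 0.0117). Whether the replication factors and the mitotic genes differed from each other was not tested.

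Genes expressed late in the cell cycle often carry a CHR element (TTTGAA) with CCAAT boxes near their start. Of the 17 members called lower, 13 had a RefSeq promoter in the table used (GRCr8, 250 bases before to 50 after the annotated start, 1 window per gene), and 12 of those windows held TTTGAA on either strand. Over all 27457 windows the share was 18.1%. CCAAT, on either strand, was in 10 of the 13 and in 37.7% of all. The letters describe the windows and show no binding. Members of the list that were not called were not counted, so these shares are not tied to the fall. The windows of both leading members are printed because they hold both motifs, with TTTGAA and CCAAT or their complements in capitals. In that of Mki67 a CCAAT complement overlaps a TTTGAA.
Mki67, chr1:199952544-199952843, minus strand: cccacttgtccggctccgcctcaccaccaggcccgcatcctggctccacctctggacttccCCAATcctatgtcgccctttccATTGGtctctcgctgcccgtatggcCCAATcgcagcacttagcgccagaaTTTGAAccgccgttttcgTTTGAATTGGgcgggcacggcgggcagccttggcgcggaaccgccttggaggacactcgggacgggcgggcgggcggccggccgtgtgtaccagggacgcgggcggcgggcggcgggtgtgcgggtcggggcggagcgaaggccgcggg
Top2a, chr10:84473044-84473343, minus strand: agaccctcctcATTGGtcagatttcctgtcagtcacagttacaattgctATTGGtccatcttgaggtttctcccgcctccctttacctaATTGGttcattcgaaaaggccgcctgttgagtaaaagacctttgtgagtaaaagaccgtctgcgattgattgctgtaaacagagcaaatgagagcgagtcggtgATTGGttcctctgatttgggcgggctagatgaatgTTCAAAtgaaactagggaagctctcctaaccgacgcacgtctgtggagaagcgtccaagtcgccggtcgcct

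The clock and its output held the widest differences among genes with a well-known role. Of 18 measured clock genes, 9 rose and 3 fell, against 3.44% and 5.62% of all genes. Bmal1, the central activator, was 5.21, 5.59, 5.40 and 5.40 in FHS and 8.51, 8.16, 8.88 and 7.21 in CNS, and differed by −2.79 ± 0.35 (adjusted p = 0.000414). Its partner Npas2 differed by −1.89 ± 0.23 (adjusted p = 0.00038). Ciart, a repressor of the BMAL1 complex, was 7.39, 6.46, 7.05 and 6.69 in FHS and 4.17 to 4.74 in CNS, a difference of 2.43 ± 0.24 (adjusted p = 7.28e-05). Every FHS rat lay beyond all CNS rats for each of these 3 genes.

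With the high-salt diet alone, against the same CNS arrays, Bmal1 differed by −2.25 and Npas2 by −1.49, Ciart by 1.56 and Per1, a Period gene that glucocorticoids also induce, by 1.52, all called (adjusted p from 0.00121 to 0.00402). With fructose alone the differences were −0.15, 0.09, 0.05 and −0.56, none called. In FHS, Per1 differed by 1.53 ± 0.20. For Ciart the excess of FHS over CHS was 0.87 (unadjusted p = 0.00205), and the adjusted threshold was not passed. Tef and Dbp, transcription factors of clock output, and Usp2, a deubiquitinase under clock control, differed by 1.03, 1.31 and 1.28 between FHS and CNS, and Per2, Per3 and Cry2, further repressors, by 1.13, 1.19 and 0.63. Clock differed by −0.51 and Wee1, a cell cycle kinase with a clock-driven promoter, by 0.71. The calls of Dbp (without any 1 of rats 1 to 3 and 13 to 16; adjusted p up to 0.0918), Clock (rat 1 or 3; up to 0.0621) and Wee1 (rat 1 or 15; up to 0.0667) were lost when 1 rat was left out. Cry1, at 0.04, and Bhlhe40, at −0.04, were not called. The count of 9 was between 7 (without rat 1 or rat 15) and 10 when 1 rat was left out, and that of 3 was 2 without rat 1 or rat 3. The hour at which each rat was killed is not given in the sources used here, and its part in these values was not tested.

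**Figure D3:**
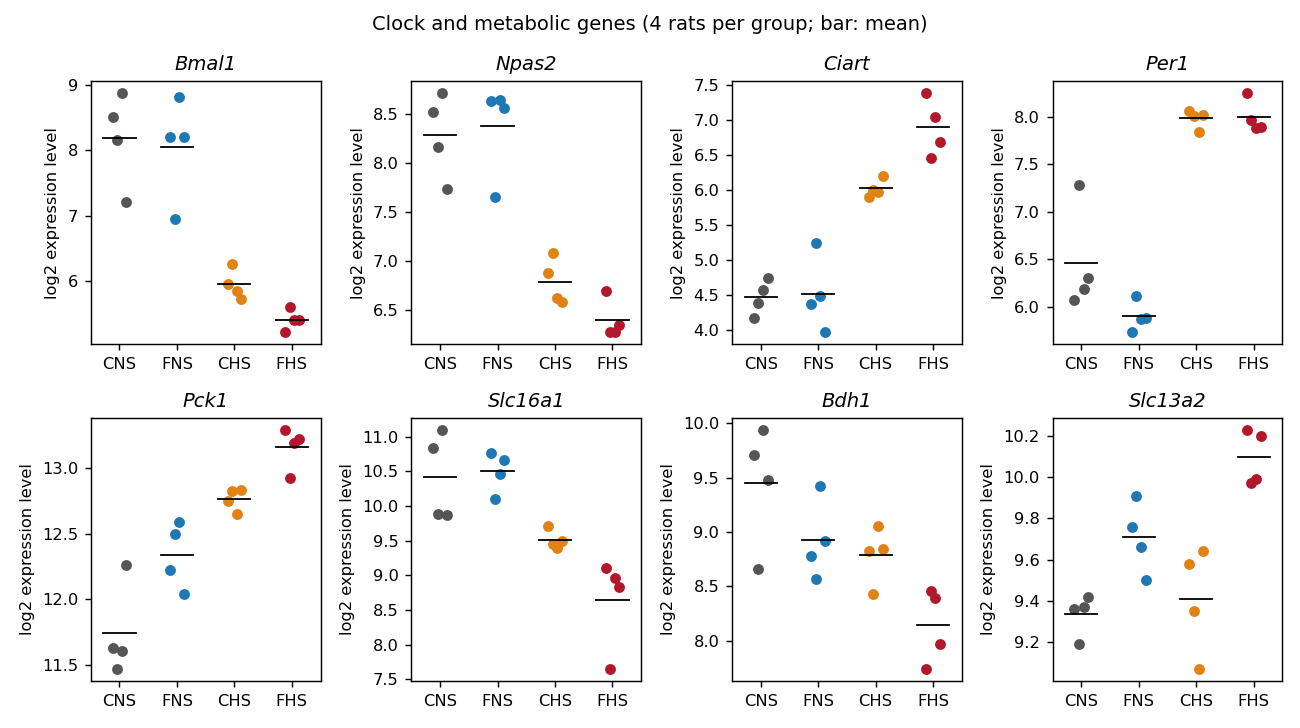
Log2 expression level of Bmal1, Npas2, Ciart, Per1, Pck1, Slc16a1, Bdh1 and Slc13a2 in every rat of the 4 groups (points are rats, horizontal bars are group means). For the 4 clock genes both high-salt groups lie on one side of both normal-salt groups, whereas for Slc13a2 the CHS mean of 9.41 lies beside the CNS values of 9.19 to 9.42.

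Promoter windows of the clock genes were searched for elements that the clock is known to use. The window of Ciart contained 3 copies of the E-box CACGTG, which BMAL1 and CLOCK bind, and 6.65% of all windows contained at least 1. That of Bmal1 contained 1 copy of TAGGTCA, the core of an element for ROR and REV-ERB receptors, and 6.51% of all windows contained TAGGTCA or TGGGTCA on either strand. Of the 8 clock genes called higher that had a window, 2 (Tef and Ciart) had the E-box in it. The window of Per1 held no CACGTG and that of Npas2 neither TAGGTCA nor TGGGTCA. The windows of Ciart and Bmal1, the called clock genes of widest difference in each direction, are printed with the motifs in capitals.
Ciart, chr2:186112197-186112496, minus strand: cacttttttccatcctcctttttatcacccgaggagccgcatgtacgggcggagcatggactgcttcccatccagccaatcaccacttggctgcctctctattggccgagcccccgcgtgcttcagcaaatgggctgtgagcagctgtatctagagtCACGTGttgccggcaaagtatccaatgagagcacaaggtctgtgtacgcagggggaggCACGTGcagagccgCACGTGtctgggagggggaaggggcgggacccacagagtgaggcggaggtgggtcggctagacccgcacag
Bmal1, chr1:176766078-176766377, plus strand: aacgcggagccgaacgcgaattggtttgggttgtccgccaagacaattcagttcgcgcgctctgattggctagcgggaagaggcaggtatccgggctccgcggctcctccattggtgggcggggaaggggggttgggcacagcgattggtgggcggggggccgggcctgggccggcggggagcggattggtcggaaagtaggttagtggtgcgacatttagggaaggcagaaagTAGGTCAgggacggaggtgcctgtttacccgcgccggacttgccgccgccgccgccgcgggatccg

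Of 8 measured genes of fructose transport and breakdown, 2 rose and 0 fell, against 3.44% and 5.62% of all genes, with a median of 0.49 in FHS, 0.22 in FNS and 0.08 in CHS. Slc5a10, a sodium-coupled carrier of fructose and mannose, was 9.75 to 10.90 in FHS and 8.54, 7.04, 8.99 and 8.92 in CNS, a difference of 1.78 ± 0.47 (adjusted p = 0.0312). The call was lost without rat 1, 2, 14 or 15 (adjusted p up to 0.0883). Khk, the first enzyme of fructose breakdown, was 11.02 to 11.38 in FHS and 10.40 to 10.56 in CNS and differed by 0.67 ± 0.15 (adjusted p = 0.0154; 0.30 in FNS and 0.32 in CHS). Tkfc, the kinase that carries the pathway to the triose phosphates, differed by 0.67 ± 0.20 (adjusted p = 0.0506). Slc2a5, the fructose uniporter GLUT5, differed by 1.28 ± 0.53 in FHS and by 1.13 in FNS, and neither was called. Its FHS values of 9.12 to 10.79 lay above the CNS values of 7.47 to 9.01, while its FNS values ran from 8.62 to 11.19. Both counts are small, and the list held 1 called member without rat 1, 2 or 15 and 0 without rats 2 and 14 together.

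Pck1, the enzyme that commits carbon to gluconeogenesis, was 13.29, 12.92, 13.19 and 13.22 in FHS and 11.63, 11.47, 11.61 and 12.26 in CNS. It rose by 1.41 ± 0.16 (adjusted p = 0.000217) and also by 1.02 with the high-salt diet alone (adjusted p = 0.00413), beside 0.59 with fructose alone. Pc, pyruvate carboxylase, which feeds the pathway with oxaloacetate, rose by 0.73 ± 0.13 (adjusted p = 0.00388), against 0.27 in FNS and 0.41 in CHS, neither called. These were the 2 called of 9 measured genes of gluconeogenesis, beside 9.06% of all genes. Fbp1, a later enzyme, differed by 0.16 (adjusted p = 0.226). Of the other members, Ppargc1a, a coactivator of the pathway, was 10.34 to 10.58 in FHS and 10.74 to 11.06 in CNS and Mdh1, cytosolic malate dehydrogenase, 12.09 to 12.54 and 12.58 to 12.76. Their differences of −0.34 and −0.31 were not called (adjusted p = 0.107 and 0.0943), but were with median centring (0.0404 and 0.0465), and 1 member was called lower without rat 7. Gpd1, which links triose phosphates to glycerol, rose by 0.71 ± 0.14 (adjusted p = 0.0088). It belongs to a list of 11 measured targets of the sugar-sensing factor ChREBP and genes of fatty acid synthesis. Of these, 2 rose and 0 fell, beside 3.44% and 5.62% of all genes. The other was Tm6sf2, at 0.72 ± 0.20 (adjusted p = 0.0364; 0.66 in FNS and −0.19 in CHS), whose call was lost without rat 2, 3, 4, 13, 14 or 15 (adjusted p up to 0.0916) and with median centring (0.0606). Pklr, the pyruvate kinase of liver and proximal tubule, differed by 1.08 ± 0.36 in FHS and by 0.85 in FNS and was not called in either. In the list of 11 measured genes of glycolysis, 6 differences were below 0 and 1 gene was called, Pfkfb3, which makes an activator of phosphofructokinase (0.42; adjusted p = 0.0358, and up to 0.104 without rat 1, 2, 3, 14, 15 or 16 and 0.114 with median centring).

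The mitochondrial dicarboxylate carrier Slc25a10 was 12.27, 12.05, 12.15 and 12.05 in FHS and 11.49, 11.35, 11.42 and 11.62 in CNS and rose by 0.66 ± 0.10 (adjusted p = 0.00122), against 0.26 in FNS and 0.20 in CHS. Slc13a2, the apical carrier by which the proximal tubule reclaims citrate, was 10.23, 9.97, 9.99 and 10.20 in FHS and 9.19 to 9.42 in CNS and rose by 0.76 ± 0.13 (adjusted p = 0.00294), against 0.37 in FNS and 0.07 in CHS. The FHS rats lay above every rat of the other groups for both genes, and the unadjusted p of the three-way comparison was 0.000785 and 0.00803. They were the 2 called of 7 measured citrate, dicarboxylate and sulfate carriers, beside 9.06% of all genes. The list's median was 0.35 in FHS and 0.20 in each single exposure. The count was 2 or 3 whichever rat was left out.

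Of 5 measured genes of ketone body synthesis and use, 1 rose and 2 fell, beside 3.44% and 5.62% of all genes, with a median of −0.22, and the other 2 were not called. Slc16a1, the monocarboxylate carrier MCT1, was 9.11, 7.65, 8.96 and 8.83 in FHS and 10.84, 9.88, 11.10 and 9.87 in CNS, a fall of 1.78 ± 0.31 on the log2 scale (adjusted p = 0.00382), against 0.08 in FNS and −0.91 in CHS, neither called. Bdh1, the dehydrogenase that interconverts both main ketone bodies, was 7.74 to 8.46 in FHS and 8.66 to 9.94 in CNS and fell by 1.30 ± 0.26 (adjusted p = 0.00707). Slc5a8, a sodium-coupled carrier of lactate and ketone bodies, was 10.69, 10.60, 10.06 and 10.70 in FHS and 7.71 to 9.86 in CNS. It differed by 1.45 ± 0.39 (adjusted p = 0.0328), with 1.17 in FNS and 0.75 in CHS, and the call was lost without rat 1, 2, 13, 14 or 16 (adjusted p up to 0.0793). Of these 3 genes, the uptake carrier of the apical side was thus higher and MCT1 and Bdh1 lower in FHS.

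Of 23 measured targets of the lipid-sensing receptor PPAR-alpha and genes of fatty acid oxidation, 6 rose and 0 fell, beside 3.44% and 5.62% of all genes, with a median of 0.26 in FHS, 0.14 in FNS and 0.12 in CHS. They were Hacl1, described above, the peroxisomal thiolase Acaa1a (0.62 ± 0.14; adjusted p = 0.0154), the carnitine carrier Slc22a5 (0.43 ± 0.10; adjusted p = 0.016), Ppara itself (0.67 ± 0.18; adjusted p = 0.0327), Acadvl (0.34; adjusted p = 0.0406), an acyl-CoA dehydrogenase, and Acot2 (0.46; adjusted p = 0.0419), a thioesterase. The high-salt diet alone gave 0.49, 0.37, 0.68, 0.40 and 0.31 for the last 5, and 0.02 for Hacl1. Only Hacl1 kept its call without each rat in turn. That of Slc22a5 was lost without rat 1, that of Acaa1a without rat 1 or 13, that of Ppara without rat 2, 3, 13, 15 or 16 (adjusted p up to 0.0963), and those of Acadvl and Acot2 without 10 and 13 of the 16 rats (up to 0.107 and 0.111). The count was 2 without rat 1 or rat 13, 3 without rat 3, 15 or 16, 4 without rat 2, 4, 5, 10 or 11, 9 without rat 14, 9 without rats 2 and 14 together and 2 with median centring.

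Enzymes of amino acid breakdown rose in 3 of 30 measured cases and fell in 0, beside 3.44% and 5.62% of all genes. The count was between 2 and 4 when 1 rat was left out, 5 with quantile normalization and 6 without rats 2 and 14. Kmo, an oxygenase of tryptophan breakdown, was 11.24 to 11.30 in FHS and 10.83 to 10.87 in CNS and rose by 0.42 ± 0.08 (adjusted p = 0.00484; 0.02 in FNS and 0.25 in CHS). Bhmt, which makes methionine from homocysteine and betaine, was 11.71, 10.88, 11.40 and 11.25 in FHS and 10.36 to 10.62 in CNS, and it rose by 0.80 ± 0.17 (adjusted p = 0.00996; 0.38 in FNS and −0.08 in CHS). Kyat1, an aminotransferase of kynurenine, differed by 0.34 ± 0.09 (adjusted p = 0.0312) and by 0.42 in CHS (adjusted p = 0.021), and its FHS call was lost without rat 1, 3, 4, 13 or 15 (adjusted p up to 0.0929) and with median centring (0.136). Slc1a5, a carrier of glutamine and other neutral amino acids, rose by 0.61 ± 0.13 (adjusted p = 0.0126). It was the 1 riser of 16 measured amino acid transporters, and the proton-coupled carrier Slc36a1 was called lower (−0.45; adjusted p = 0.0391, and up to 0.110 without rat 1, 3, 4, 5, 8, 13, 15 or 16 and 0.0765 with quantile normalization).

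Of 19 measured genes of distal sodium transport and its regulators, 2 rose and 3 fell, beside 3.44% and 5.62% of all genes. Tsc22d3, the glucocorticoid- and aldosterone-induced protein GILZ, rose by 0.82 ± 0.11 (adjusted p = 0.000674) and by 0.74 with the high-salt diet alone (adjusted p = 0.00261). Scnn1g, the gamma subunit of the epithelial sodium channel, was 8.99 to 9.18 in FHS and 8.40 to 8.53 in CNS and rose by 0.56 ± 0.12 (adjusted p = 0.0116; 0.15 in FNS and 0.28 in CHS). The channel's beta subunit differed by −0.17 between FHS and CNS and was not called (adjusted p = 0.516). The kinase Stk39 (SPAK), which activates the sodium-chloride cotransporters, fell by 0.52 ± 0.10 (adjusted p = 0.00799) and Cul3, the ubiquitin ligase scaffold that removes the WNK kinases, by 0.39 ± 0.08 (adjusted p = 0.0124). Klk1, tissue kallikrein of the connecting tubule, was at most 11.22 in FHS and 11.32 to 12.05 in CNS, a difference of −0.66 ± 0.19 (adjusted p = 0.0391) that was lost without any 1 of rats 1, 2, 4, 13, 14, 15 and 16 (adjusted p up to 0.0979) and with quantile normalization (0.0619). In the list of 11 measured genes of proximal sodium, phosphate and glucose transport, 0 were called. At an unadjusted p under 0.05 in limma, 1 was higher and 2 were lower, beside 11.9% and 13.3% of all genes.

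Agtrap, which promotes internalisation of the angiotensin receptor, was the 1 called of 10 measured genes of the renin-angiotensin system, beside 9.06% of all genes. It was 10.52, 10.08, 10.32 and 10.35 in FHS and 9.28 to 9.58 in CNS and rose by 0.83 ± 0.11 (adjusted p = 0.000744), against 0.24 in FNS and 0.42 in CHS (adjusted p = 0.054). Guca2b, the natriuretic peptide uroguanylin, rose by 0.81 ± 0.16 (adjusted p = 0.00796; 0.55 in FNS and 0.19 in CHS). It was the 1 called of 13 natriuretic, nitric oxide, endothelin and prostaglandin genes, again beside 9.06% of all genes. Aqp2, the water channel of collecting duct principal cells, was 10.84, 10.86, 10.24 and 10.58 in FHS and 9.85 to 9.95 in CNS, and it rose by 0.73 ± 0.14 (adjusted p = 0.00637) and with the high-salt diet alone by 0.66 (adjusted p = 0.0186), beside −0.33 in FNS. Aqp2 and Scnn1g were the 2 called higher of 7 measured markers of principal cells, beside 3.44% of all genes. Of the 7 differences, 4 were above 0 and 3 below.

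Glucocorticoid-responsive genes had a median of 0.47 in FHS, 0.56 in CHS and 0.02 in FNS. Of 13 measured members, 3 were called higher in FHS (Per1, Tsc22d3 and Errfi1) and 2 in CHS, beside 3.44% and 1.06% of all genes. Errfi1, a feedback inhibitor of the EGF receptor, differed by 0.85 ± 0.21 (adjusted p = 0.0251), lost without rat 1, 3 or 13 (up to 0.0782). Herpud1, a component of protein disposal at the endoplasmic reticulum, rose by 1.04 ± 0.13 (adjusted p = 0.000373) and with the high-salt diet alone by 0.93 (adjusted p = 0.0016). It was the 1 riser among 22 measured genes of the endoplasmic reticulum list, in which Dnajc3, a co-chaperone, fell by 0.39 ± 0.09 (adjusted p = 0.0135) and Canx, calnexin, differed by −0.30 (adjusted p = 0.0192; 0.0519 without rat 3). Without rat 14 there were 4 risers, and with quantile normalization 3. With the high-salt diet alone 7 of these 22 rose, beside 1.06% of all genes. The chaperone Hspa5, for one, differed by 0.32 in FHS (adjusted p = 0.143) and by 0.62 in CHS (adjusted p = 0.0161), and its FHS minus CHS difference was −0.31 (unadjusted p = 0.0294; adjusted p = 0.477).

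Of the 20 lower genes with the smallest p, Rab5b, a GTPase of early endosomes, came first. It was 7.79, 7.76, 7.80 and 7.89 in FHS and 8.53 to 8.72 in CNS and fell by 0.84 ± 0.07 (adjusted p = 3.55e-05), beside a fall of 0.79 in CHS. Thra, the thyroid hormone receptor alpha, fell by 0.93 ± 0.09 in FHS and by 1.03 in CHS, and Extl3, an enzyme of heparan sulfate synthesis, by 0.88 in both. Arrb2, beta-arrestin 2, Nectin1, a cell adhesion molecule, Arid1a, a subunit of the SWI/SNF chromatin remodeller, Wbp2, a transcriptional coactivator, and Creb3l1, a membrane-bound transcription factor, fell by between 0.81 and 1.37, as did Atn1, a corepressor. In CHS these genes differed by −1.01 to −0.66, all called. Pbx2, a homeodomain factor, Asap2, an ARF GTPase-activating protein, Proser3 and Eif4g3, a translation initiation factor, fell by between 0.74 and 0.79. In CHS they differed by −0.69 to −0.49, all called. Rpl36l2, a row named for a ribosomal protein-like gene whose probes may read other copies, fell by 1.01, beside −0.79 in CHS (called). Ndrg1, a stress-induced protein, was 12.37, 12.02, 12.16 and 12.22 in FHS and 12.89 to 13.04 in CNS and fell by 0.80 ± 0.10, against 0.47 in CHS. Tbx2, a T-box repressor, and Cotl1, an actin-binding protein, fell by 0.85 and 1.01 in FHS, against differences of −0.46 and −0.49 in CHS, with means in FNS of 8.37 and 8.68 beside 8.24 and 8.66 in CNS. Their interactions had unadjusted p-values of 0.0046 and 0.011 and did not pass adjustment.

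The head of the interaction, 5 genes each way, shared Dcm5 and Rhoq with that of the three-way comparison. Gpm6a, a membrane glycoprotein, had the smallest p (0.00011; adjusted p = 0.599). It differed by 0.19 between FHS and CNS, but was lower in FNS, at a mean of 7.96 against 8.97 in CNS and 9.16 in FHS. Cx3cr1, the fractalkine receptor of resident macrophages, was 7.01 to 7.17 in CHS, 7.41 to 7.71 in FHS and 7.81 to 7.98 in CNS. It thus fell by 0.79 with the high-salt diet alone (adjusted p = 0.00043) and by 0.33 with both (adjusted p = 0.0385; 0.0786 with quantile normalization and up to 0.0891 without any 1 of rats 1 to 5 and 14 to 16). Arhgap15, a GTPase-activating protein of leukocytes, was 5.51 in CHS, 5.81 in FNS and in FHS, and 6.12 in CNS. Nlrp4al1, Zbtb5, Nalf2, Zmat4 and Or10j27 differed by at most 0.13 between FHS and CNS and were not called there.

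Other lists gave a few calls each, beside 3.44% of all genes called higher and 5.62% called lower. Zfp36, which speeds the decay of cytokine mRNAs, rose by 0.92 ± 0.21 (adjusted p = 0.0155; 0.71 in CHS) and was the 1 called of 17 measured immediate early genes. Hspa4l, a chaperone of the osmotic stress response, was 7.10, 6.36, 6.85 and 6.78 in FHS and 7.34 to 7.77 in CNS and fell by 0.73 ± 0.14 (adjusted p = 0.0069). Sesn3, a stress-induced inhibitor of mTORC1, fell by 0.56 ± 0.13 (adjusted p = 0.015), and Irs1, the insulin receptor substrate, differed by −0.52 ± 0.14 (adjusted p = 0.0299; lost without rat 1, 3, 4, 13, 14 or 15, up to 0.0767). They were the 2 called of 19 measured genes of insulin signalling, FoxO and nutrient sensing, whose median was −0.18 in FHS, 0.02 in FNS and −0.11 in CHS. Of 11 measured genes of cholesterol synthesis, Idi1 (−0.74) and Cyp51 (−0.51) were called lower (adjusted p = 0.0372 and 0.0466), but neither was with quantile normalization (0.0550 and 0.0555) or without rat 1, 3, 4, 13 or 15, and leaving out rat 16 ended the call of Idi1 too, as leaving out rat 2, 5, 8, 10, 11 or 14 did that of Cyp51 (adjusted p up to 0.108 and 0.135). In limma 0 members were called of 22 in the Nrf2 and glutathione list, 14 in the arachidonate P450 list, 16 in that of drug and organic ion transporters and 22 in that of tubular injury, and 7, 2, 1 and 6 of them had an unadjusted p under 0.05. Over all genes 11.9% were higher and 13.3% lower at that unadjusted threshold. In the Nrf2 and glutathione list, 4 members were called lower with median centring, and 3 of 21 without dim rows.

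Markers of cell types differed by list. Over all genes 3.44% were called higher and 5.62% lower, and 11.9% and 13.3% were so at an unadjusted p under 0.05 (limma). Of 12 markers of the S1 and S2 proximal tubule and 9 of T and B lymphocytes, 0 were called, with 1 and 2 higher and 0 and 1 lower at an unadjusted p under 0.05 (limma). Cdh5, the cadherin of endothelial junctions, was 8.00, 8.53, 8.23 and 8.31 in FHS and 8.97 to 9.17 in CNS and fell by 0.80 ± 0.15 (adjusted p = 0.00513). It was the 1 called of 6 measured endothelial markers, and it fell by 0.66 with the high-salt diet alone. Of 8 markers of fibroblasts and smooth muscle, 2 were lower, Des (desmin, −0.42) and Myh11 (smooth muscle myosin, −0.40 in FHS and −0.69 in CHS), and both calls were lost without rat 2, 4, 13 or 16, and that of Myh11 also without rat 1 or 15 (adjusted p up to 0.0761 and 0.0890). The intercalated cell proton pump subunit Atp6v1g3 fell by 0.77 ± 0.17 (adjusted p = 0.0116) and was the 1 called of 8 measured markers of that cell type, of which 3 were above 0 (Slc4a9, an anion exchanger, 0.31; unadjusted p = 0.0329), and 0 were called in limma without rats 2 and 14. Kcnj1, the apical potassium channel of the thick ascending limb, differed by −0.52 (adjusted p = 0.0307) and was the 1 called of 6 markers of its segment, 3 of them above 0. The podocyte factor Wt1 differed by −0.38 (adjusted p = 0.0373; −0.46 in CHS). It was the 1 called of 5 measured podocyte markers, whose median was −0.085. Kcnj1 lost its call without rat 1, 3, 4, 13 or 15 and Wt1 without rat 1, 2, 13, 14 or 15 (adjusted p up to 0.0862 and 0.0843), and Kcnj1 also with quantile normalization (0.0606). Of 14 markers of macrophages and antigen-presenting cells, 1 was called higher and 1, Cx3cr1 (above), lower. The higher one was RT1-Da, an antigen-presenting class II molecule, at 9.94 to 10.53 in FHS and 9.35 to 9.88 in CNS (adjusted p = 0.0499), whose call was lost without any 1 of 14 rats (all but rats 2 and 8; adjusted p up to 0.141) and with median centring (0.0988). C1qa, a complement component, differed by 0.46 (adjusted p = 0.107). Of the 26 measured genes of extracellular matrix, 3 were called lower and 0 higher, beside 5.62% and 3.44% of all genes, with a median of −0.18. Among them Timp2, a metalloproteinase inhibitor, was 7.78, 8.16, 7.68 and 7.77 in FHS and 8.28 to 8.36 in CNS and fell by 0.48 ± 0.10 (adjusted p = 0.0105). The matrix count was 6 without rat 14 and 1 without rat 1, 3, 4, 15 or 16.

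Interferon-response genes had a median of 0.31 in FHS, 0.07 in FNS and 0.10 in CHS. Of 17 measured, 1 was called higher (Mx2, an antiviral GTPase, 0.72 ± 0.20, adjusted p = 0.0395), beside 3.44% of all genes. At an unadjusted p under 0.05 in limma, 7 were higher, beside 11.9% of all genes. The per-rat medians of the list ran from 0.13 to 0.70 over FHS rats and from −0.04 to 0.04 over CNS rats. The call of Mx2 was lost without any 1 of rats 1 to 5 and 13 to 15 (adjusted p up to 0.106) and with median centring (0.0582). Mx1 was 6.89, 7.10, 7.35 and 6.06 in FHS and 5.70 to 6.03 in CNS, so that rat 16 lay near the controls, and it was not called (adjusted p = 0.0664).

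**Figure D4:**
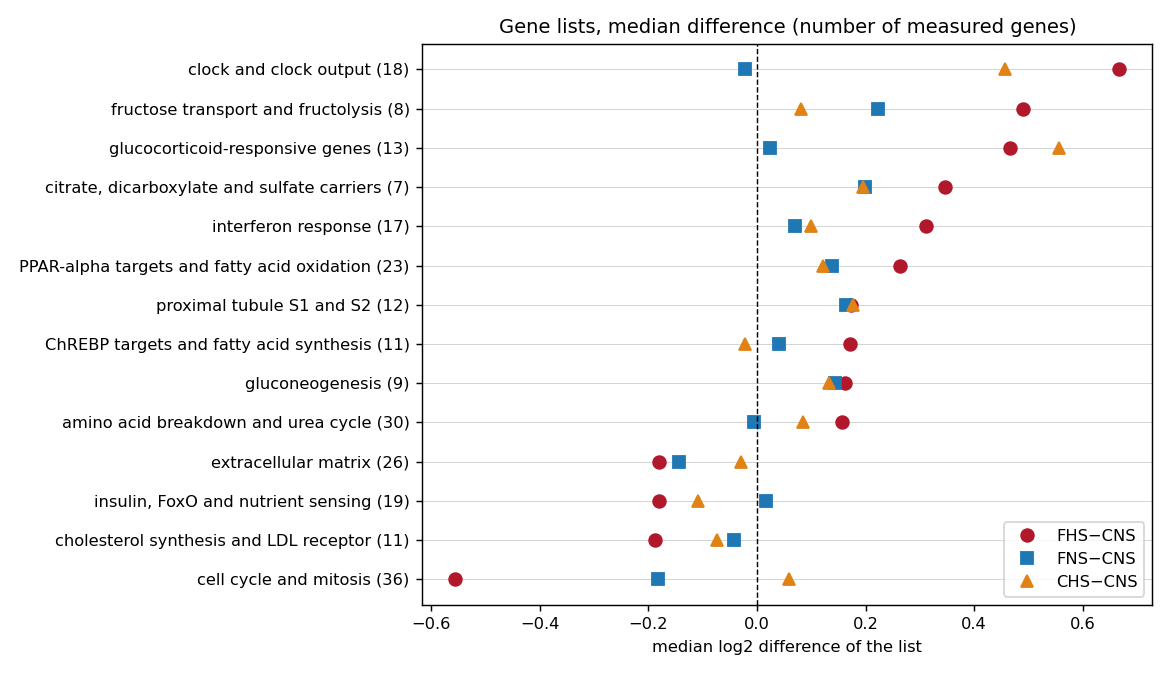
Median log2 difference of 14 gene lists in FHS minus CNS, FNS minus CNS and CHS minus CNS (1 point per comparison; all 3 share the CNS arrays; the dashed line is 0). The clock list has 0.67 in FHS, 0.46 in CHS and −0.02 in FNS, and the cell cycle list −0.55, 0.06 and −0.18.

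Many rows at the head of the higher genes carry names of genes not known for a role in the kidney. Or5h25, named for an olfactory receptor, had the smallest p of all. It was 9.19, 9.43, 8.62 and 8.91 in FHS and 6.50, 5.56, 5.59 and 5.83 in CNS and rose by 3.17 ± 0.21 (adjusted p = 1.63e-06), and by 2.54 with the high-salt diet alone (adjusted p = 2.01e-05). Or5ae1, Or6c33 and Or9s15 rose by 1.51, 1.76 and 0.90, and Krtap12-2, named for a keratin-associated protein, by 1.48. In CHS they rose by 0.776, 1.211, 0.61 and 0.945, all called. Of 1117 olfactory receptor genes 54 rose (4.83%) and 5 fell (0.448%), beside 3.44% and 5.62% of all genes. Their median level of 3.33 lay in the lowest of the 5 level classes. Or5h25 and Or5ae1 had mean levels of 7.29 and 7.46, in a class with a median difference of −0.05. Or6c33 and Or9s15 had 5.11 and 5.53, in classes with 0.10 and 0.00. The part of the level in these calls was not tested. The array names date from the platform's annotation, and the transcripts behind these rows were not checked here. Ifitm7, of the interferon-induced transmembrane family, rose by 1.46 ± 0.15 (adjusted p = 0.000125), and by 0.83 in CHS (adjusted p = 0.00965). Nat8f3, an N-acetyltransferase family member, rose by 1.46 in FHS and 1.55 in CHS, and Ankrd46, an ankyrin-repeat protein, by 0.72 in FHS and 0.56 in CHS.

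Of 363 microRNA genes, 37 rose (10.2%) and 3 fell (0.826%), beside 3.44% and 5.62% over all genes. Their median difference was 0.10 and their median level 3.92, in the lowest of the 5 level classes. Mir98, Mir328b and Mir210 had mean levels of 5.86, 6.58 and 7.40, in classes with median differences of 0.00 and −0.05. Mir338 had a mean level of 4.62, in a class with 0.10. The part of the level in these calls was not tested. The probes read the gene's transcript, and the amount of mature microRNA was not measured by them. Mir98, of the let-7 family, was 7.06, 7.09, 6.54 and 6.77 in FHS and 4.81 to 5.25 in CNS and rose by 1.81 ± 0.20 (adjusted p = 0.000183), with 1.20 in CHS (adjusted p = 0.0057). Mir210, known as a hypoxia-induced microRNA, was 8.17, 8.18, 7.63 and 7.93 in FHS and 6.70 to 7.17 in CNS and rose by 1.04 ± 0.13, with 0.71 in CHS. Mir328b rose by 0.99 ± 0.12, with 0.60 in CHS. Mir338 was 5.39, 4.97, 4.90 and 5.29 in FHS and 4.27 to 4.78 in CNS and rose by 0.64 ± 0.14 (adjusted p = 0.0101), with 0.02 in CHS and a mean of 4.33 in FNS beside 4.49 in CNS. The main mature sequences of these 4 genes follow (RefSeq, GRCr8), with the seed, bases 2 to 8, in capitals. The 4 seeds differ from one another.
rno-miR-98-5p, chrX:24460663-24460684: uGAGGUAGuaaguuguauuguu
rno-miR-210-3p, chr1:205755946-205755967: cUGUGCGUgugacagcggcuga
rno-miR-328b-3p, chr14:44016793-44016810: cUGGCCCUcucugcccua
rno-miR-338-3p, chr10:105796345-105796367: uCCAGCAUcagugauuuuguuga

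**Figure D5:**
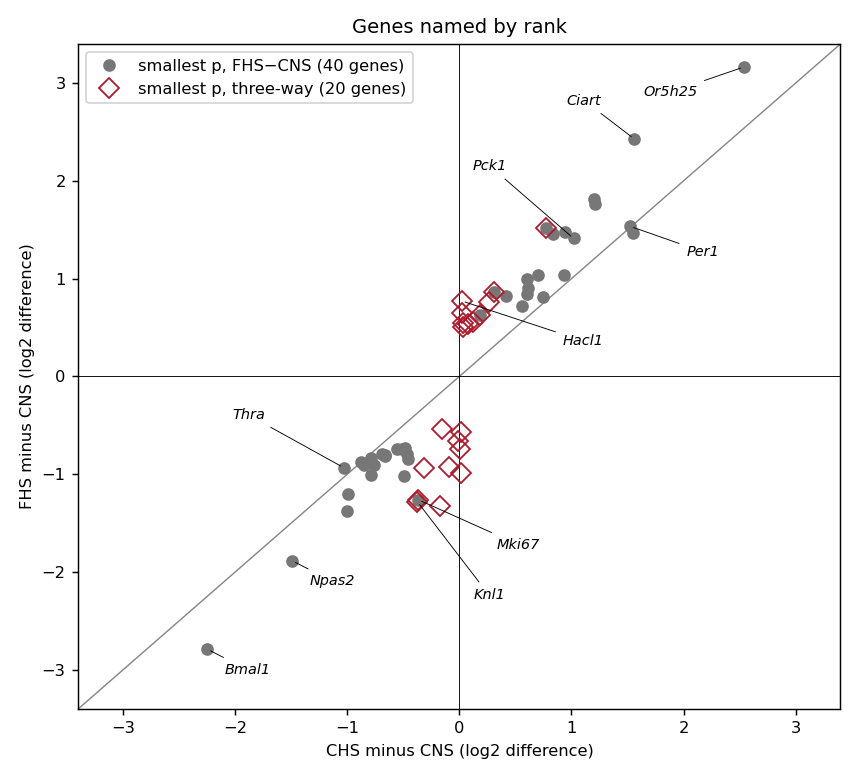
Log2 difference of each of the genes named by rank (smallest p in FHS minus CNS, 20 higher and 20 lower, and in the three-way comparison, 10 each way), with CHS minus CNS on the horizontal axis and FHS minus CNS on the vertical axis (both in log2 units, sharing the CNS arrays; the line marks equal values). In the FHS minus CNS ranking, Thra and Per1 lie close to the line. Genes of the three-way ranking lie off it by the rule, which asks for a small p between FHS and CHS. Of these, Rhoq and Hacl1 lie near a CHS difference of 0. Mki67, Or5ae1, Fbxo21 and Hexd are in both rankings. Mki67 (−0.37 in CHS) and Or5ae1 (0.78 in CHS) lie neither near a CHS difference of 0 nor close to the line.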

How the data were processed

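Superficial renal cortex of 16 male rats, 4 per group, was profiled on 1 Affymetrix RaGene 2.0 ST array per rat. The authors made the deposited log2 values with RMA in Affymetrix Expression Console (quartile normalization, median polish), and those values were used as they are. The unprocessed array files were not used. All 16 value columns matched a sample label, and 0 were left unmapped. Of 36685 TranscriptClusterIDs, 18511 had 1 gene symbol in the platform table, 575 several and 17599 none. Only the first were named, by 1 row per symbol (highest mean), which left 18166 genes.

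A model of 4 group means was fitted to all rows and arrays with limma 3.58.1 in R 4.3.3 (lmFit, eBayes, constant prior), after tests on simulated data. It differs from the ANOVA that the methods of the study name, which was run as an alternative. p-values were adjusted by Benjamini-Hochberg over all 36685 rows and called under 0.05. With 4 arrays per group, their number limits the precision, and p-values take the rats as independent. For the three-way comparison the largest of 3 p-values was adjusted.

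Genes were named by rule: the 40 genes of smallest p between FHS and CNS (20 each way), 10 and 10 for the three-way comparison, 5 and 5 for the interaction, and from each list up to 4 genes of smallest p. A further 20 genes (such as Dbp, Cry1, Mcm2, Hspa5 and Immp1l) were named after their values were seen. The groups compared and the 47 gene lists (584 of 667 genes measured) were chosen with earlier results of these data known. Sequences came from RefSeq (GRCr8). Alternatives covered dim rows, quantile normalization, median centring, intensity trend, array weights, the threshold, the rows adjusted over, the 8 arrays alone, the mean of all rows of a symbol, and each rat left out.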

Additional observations from a re-analysis of the deposited data

Results flagged for a closer look

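In 31 of 548 groups of 4 rats, taken over the 137 genes named above (5.7%), 1 rat stood far from the other 3, which chance does in about 1 group in 20. Rat 6 (FNS) was the rat apart in 7, rat 14 (FHS) in 6, and rat 2 (CNS) in 5. Rat 6 was at 7.65 for Npas2, where the other FNS rats lay between 8.56 and 8.64, at 7.88 for Tef (others 7.28 to 7.36) and at 7.87 for Wee1 (others 7.33 to 7.35), so that in these 3 clock genes it lay on the side of the high-salt groups. It also stood apart for Errfi1 (12.34), Creb3l1 (7.58), Cotl1 (8.46) and Rab5b (8.5). Rat 14 was above the other FHS rats for Slc2a5 (10.79; others 9.12 to 9.40), Tkfc (11.46; others 10.88 to 10.96) and Khk (11.38; others 11.02 to 11.08), all 3 of fructose uptake and breakdown, and below them for Ppara (9.19), Canx (11.31) and Dbp (11.71). Rat 2 was lower than the other CNS rats for Kcnj1 (8.69), Idi1 (8.52) and Acot2 (8.48) and higher for Kyat1 (10.67) and Ppargc1a (11.06). Rat 3 was apart for Agtrap (9.28), Scnn1g (8.40) and Khk (10.56) and rat 13 for Ska3 (5.98), Zfp36 (9.51), RT1-Da (10.53) and Pfkfb3 (7.04). Slc5a8 in rat 15 (10.06), Ankrd46 (8.66) and Pklr (11.04) in rat 7, Arid1a in rat 8 (8.47), Pbx2 in rat 5 (7.43) and Zmat4 in rat 9 (6.38) completed the set.

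For 10 genes every FNS rat lay on one side of the CNS mean while every FHS rat lay on the opposite side of the CHS mean. The difference between both fructose effects (on the high-salt minus on the normal-salt diet) was 1.5 for Gpm6a, 0.78 for Nlrp4al1, 0.65 for RT1-Da, 0.61 for Arhgap15, 0.58 for Dcm5, 0.57 for Myh11, −0.47 for Zbtb5, −0.52 for Tbx2, −0.63 for Nalf2 and −0.85 for Zmat4. In limma's interaction none of them passed adjustment, and 6 of the 10 had been named for a small interaction p alone.

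Among TranscriptClusterIDs with no single symbol in the platform table, 17741229 was called against each of the other groups. It was 9.12 to 10.59 in FHS, 7.33 to 8.30 in CNS, 8.20 to 9.01 in FNS and 6.59 to 7.68 in CHS. FHS exceeded CHS by 2.69 (adjusted p = 0.0108), FNS by 1.52 (adjusted p = 0.0129) and CNS by 2.29 (adjusted p = 0.00087; limma). Its three-way p did not pass adjustment (0.349).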

How the results depend on the processing

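The number of genes called between FHS and CNS was 2666 at an adjusted p under 0.10, 581 from the 8 arrays alone, and 360 by the methods' ANOVA after adjustment (3931 at an unadjusted p under 0.05), and ranged from 855 (without rat 1) to 1651 (without rat 7) with 1 rat left out, beside 1646. For CHS minus CNS it was 1149 at 0.10, 992 without dim rows, 909 with array weights and 929 without rats 2 and 14 (chosen after seeing the data), and 233 (without rat 1) to 771 (without rat 14) with 1 rat left out, beside 603. For FHS minus FNS it was 1802 at 0.10 and 1497 with array weights, and 382 (without rat 8) to 1060 (without rat 2) with 1 rat left out, beside 959. For FHS minus CHS it was 15 at 0.10, 14 without dim rows, 1 with an intensity trend, and 0 or, without rat 15, 1 with 1 rat left out, beside 0. FNS minus CNS and the interaction called 0 genes under every alternative run, and the three-way comparison 0 or, without rat 15, 1. The causes were not tested. The FHS minus CNS difference of array medians was 0.0732 (without rat 14) to 0.108 (without rat 15), where 3 against 4 arrays cannot pass (smallest exact permutation p 0.0571). Over the 137 genes named, 2971 pairs of a gene and an alternative kept direction and side of the threshold, 269 lost the call, 17 gained one and 10 turned direction, the latter only for Mcm2, Cry1 and Bhlhe40, none of them called. Their differences were −0.088 to 0.067, −0.058 to 0.196 and −0.093 to 0.024 with 1 rat left out, −0.058 for Cry1 with median centring and 0.005 for Bhlhe40 with quantile normalization. The median of 19 of the 47 lists changed sign under some alternative. No paired analysis was possible because the labels number the rats from 1 to 16, so the groups share no replicate numbers.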
